A study of Mus musculus with 13 samples.

Results

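The high-mobility group (HMG) genes Hmga1, Hmga2, Hmgb1, Hmgb2, Hmgb3, Hmgn1, Hmgn2 and Hmgn3 and the prothymosin genes Ptma and Ptms, 10 of the 22406 gene symbols in the tables, were followed through endoplasmic reticulum (ER) stress by ribosome footprint profiling, which sequences the mRNA fragments covered by translating ribosomes. The group was chosen by the measured values: Hmga2 and Ptms were among the genes that fell most in WT MEFs, and the other 8 genes belong to the same families of chromatin proteins. The WT values are therefore given as a description, and no support is drawn from them. ER stress was induced with thapsigargin (Tg), an inhibitor of the SERCA calcium pump. The cells were mouse embryonic fibroblasts (MEFs) that were either WT or knocked out for the ER stress kinase PERK (PERK -/-), untreated (control) or given Tg at 1 µM over 1, 2, 5 or 8 h, and NIH3T3 cells, an established mouse fibroblast line with intact PERK, untreated or given 200 nM Tg over 2 or 7 h. Only 1 library stood for every one of the 13 conditions, so there were no replicates, no test between conditions was possible, and the intervals below cover counting error only. No more than 1 MEF line of each genotype is named, so the PERK deletion and any other difference between both lines cannot be told apart.

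HMG proteins are small, abundant and mobile nuclear proteins that bind DNA or nucleosomes with little sequence preference. HMGA proteins grip the minor groove of AT-rich DNA with short AT-hooks, HMGB proteins bend DNA with HMG boxes, and HMGN proteins bind the nucleosome core. Prothymosin α, encoded by Ptma, and parathymosin, encoded by Ptms, are highly acidic, largely unfolded nuclear proteins, and both are known to bind histone H1. Hmga2 is an oncofetal gene, high in embryonic and transformed cells and low in most adult tissues, and PERK is the kinase that phosphorylates eIF2α and slows protein synthesis during ER stress.

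The coding sequences of Hmga2 and Ptms, the genes with the largest changes, and of their closest relatives Hmga1 and Ptma are shown because the short stretches that give these proteins their character can be read from them. They show the coding sequence without its first and last 30 nt, from a single GENCODE transcript of each gene on GRCm38 (the assembly of mm10). Footprints were assigned to RefSeq coding sequences clipped in the same way, and these may differ from the ones shown. Capitals mark the codons of each AT-hook core (arginine, glycine, arginine before a proline) in Hmga1 and Hmga2, and the longest unbroken run of codons for aspartate and glutamate in Ptma and Ptms.
Hmga1: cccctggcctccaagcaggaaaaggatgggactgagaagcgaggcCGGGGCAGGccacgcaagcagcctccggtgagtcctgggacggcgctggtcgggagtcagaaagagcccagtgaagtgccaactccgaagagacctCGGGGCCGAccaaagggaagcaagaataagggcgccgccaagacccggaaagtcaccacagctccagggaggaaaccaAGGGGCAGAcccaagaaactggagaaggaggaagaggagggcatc
Hmga2: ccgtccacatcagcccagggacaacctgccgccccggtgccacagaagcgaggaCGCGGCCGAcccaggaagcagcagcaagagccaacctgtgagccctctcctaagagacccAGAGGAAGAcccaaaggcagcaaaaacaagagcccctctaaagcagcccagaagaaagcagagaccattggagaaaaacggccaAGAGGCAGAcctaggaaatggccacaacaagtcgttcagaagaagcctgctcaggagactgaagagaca
Ptma: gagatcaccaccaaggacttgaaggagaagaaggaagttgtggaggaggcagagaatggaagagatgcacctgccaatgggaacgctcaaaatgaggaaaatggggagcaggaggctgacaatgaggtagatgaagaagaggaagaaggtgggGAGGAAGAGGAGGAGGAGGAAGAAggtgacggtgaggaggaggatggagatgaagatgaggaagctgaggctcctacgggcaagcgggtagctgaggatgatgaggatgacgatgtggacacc
Ptms: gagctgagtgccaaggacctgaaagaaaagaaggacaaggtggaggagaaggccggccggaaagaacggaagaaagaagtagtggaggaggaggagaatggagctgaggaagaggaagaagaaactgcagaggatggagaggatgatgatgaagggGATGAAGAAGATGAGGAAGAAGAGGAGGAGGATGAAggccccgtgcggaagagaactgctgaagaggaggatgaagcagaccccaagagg

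Hmga2 lies on chromosome 10 (GRCm38 chr10:120361268-120476469, minus strand) and Ptms on chromosome 6 (chr6:124913675-124917946, minus strand). Each HMGA coding sequence held 3 AT-hook cores. The encoded proteins, of 107 and 108 residues, were identical at 44.6% of the 121 columns of their alignment, with gaps counted as columns. Aspartate and glutamate made up 47.7% of the protein of Ptma and 45.5% of that of Ptms, with longest acidic runs of 8 and 12 residues. The clipped coding sequences were short in all 10 genes, from 213 nt in Hmgn2 to 588 nt in Hmgb1. Every 30-nt stretch of Hmgn2 also occurred in the predicted genes Gm10282 and Gm20379, and those of Hmga1 were not unique among coding sequences either, so the assignment of reads to both genes is uncertain. In Hmgb2, 1.10% of the 30-nt stretches were shared with other genes, and in the other members none.

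Total expected counts per library were 2525029 to 14799515 in MEFs and 2569965 to 11121006 in NIH3T3 cells. Levels are given as TPM values, a share of the library corrected for coding length, so a lower value means a loss relative to other genes, and a fall in total protein synthesis is not seen. A footprint level joins mRNA abundance and ribosome occupancy, and in a culture dish fewer cells that translate a gene and fewer footprints per cell cannot be told apart. Eif2ak3, which encodes PERK, had 7.64 to 19.1 CPM (expected counts scaled to library totals) in PERK -/- libraries and 14.4 to 33.3 in WT, lower at each matched time but not 0. Of 9 fibroblast markers, Vim was at 2581 to 3315 TPM in MEFs and 1549 to 1872 in NIH3T3 cells, whereas Col3a1 and Pdgfrb did not exceed 1.67 and 5.36 TPM in NIH3T3 cells. Pdgfra was at 0.27 to 10.81 TPM in MEFs and 6.57 to 13.23 in NIH3T3 cells. Of 6 markers of other cells, Pecam1 and Ptprc were at or near 0, and the keratins reached 16.01 TPM for Krt18 in MEFs and 15.6 for Krt8 in NIH3T3 cells. All 10 genes passed the limit of a mean of 2 TPM that left 10432 genes in MEFs and 10117 in NIH3T3 cells. A call below means a TPM at least 2-fold from the control of the same cells, with values under 4 TPM raised to 4, and the times of a cell line share that control.

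In untreated cells the genes spanned a wide range of levels, and Hmga2 was the one that differed most between both MEF lines, followed by Hmgn3, Ptms and Hmga1. In the WT control, Ptma had the highest level at 7263 TPM, followed by Hmgb1 (1813), Ptms (1335), Hmga1 (1276), Hmgb2 (1201), Hmgn2 (1002), Hmgn1 (742), Hmga2 (712), Hmgb3 (174) and Hmgn3 (65.0). Ptms and Hmga1, and Hmgn1 and Hmga2, were neighbours in this order whose levels did not differ beyond counting error. In the PERK -/- control the order was Ptma, Ptms, Hmgb1, Hmgb2, Hmgn2, Hmga1, Hmgn1, Hmga2, Hmgb3 and Hmgn3, and all neighbours differed beyond counting error. Hmga2 stood at 292 TPM there, 2.44-fold lower than in WT, the 115th lowest ratio among 10432 genes, of which 1.97% were at least 2-fold lower. Hmga1 was 1.46-fold lower in the PERK -/- control, whereas Ptms (2184 TPM) was 1.64-fold higher and Hmgn3 1.65-fold higher. The other 6 genes lay within log2 ratios of -0.32 to 0.02. Together the 10 genes took 1.56% of all TPM in the WT control and 1.47% in the PERK -/- control.

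The NIH3T3 values were deposited in a table of their own, so these levels are set beside those of MEFs only in passing. The NIH3T3 control ranked Ptma first (1808 TPM), then Hmgb1 (673), Hmgb2 (671), Hmga1 (609), Hmgn1 (517), Hmgn2 (426), Ptms (371), Hmga2 (80.1), Hmgn3 (69.99) and Hmgb3 (69.8). Hmgb1 and Hmgb2, Hmga2 and Hmgn3, and Hmgn3 and Hmgb3 did not differ beyond counting error. The 10 genes took 0.53% of all TPM, and Hmga2 and Ptms held lower ranks among all genes (2056 and 487) than in the WT MEF control (270 and 137).

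**Figure D1:**
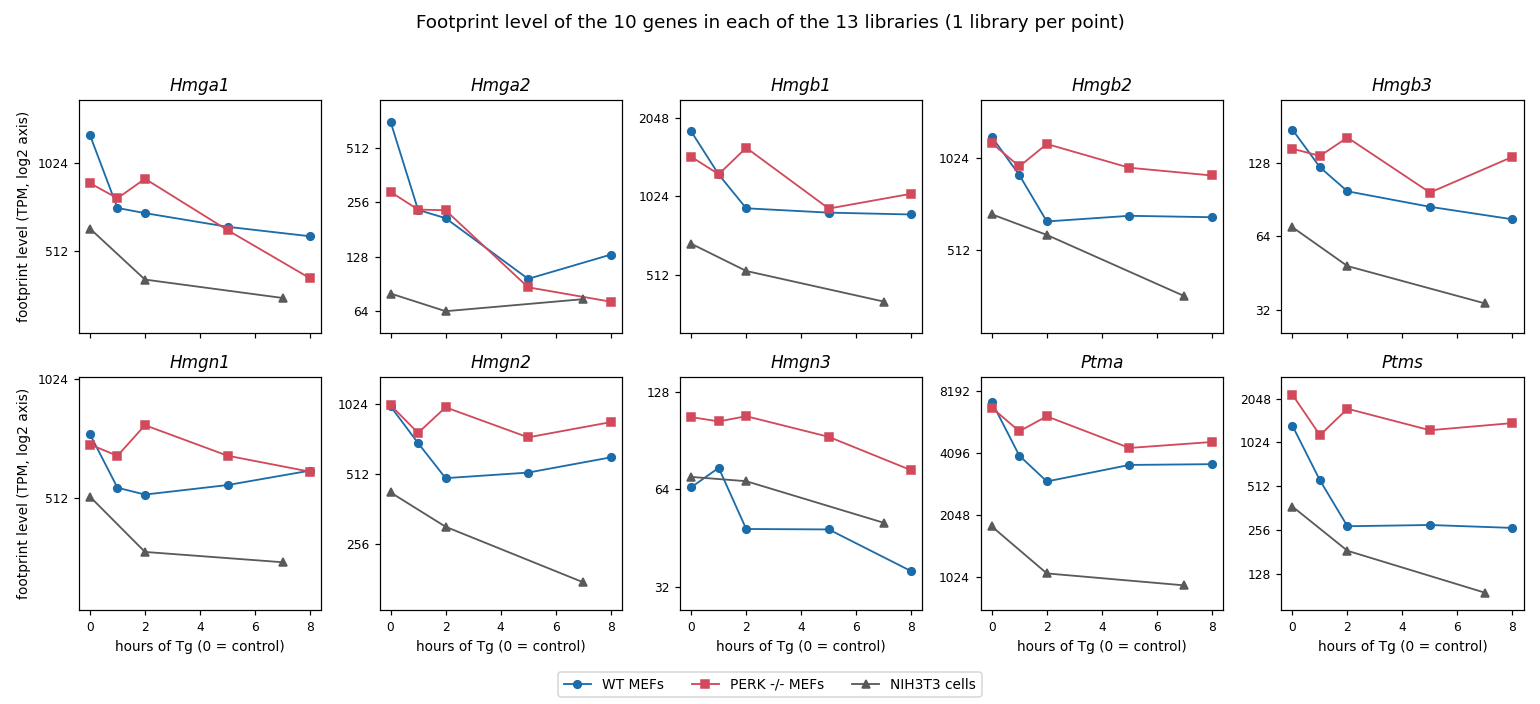
Footprint level in TPM (vertical axis, log2 scale, a different range in each panel) against hours of Tg (horizontal axis, 0 is the control) for the 10 genes, with 1 library per point and a line for WT MEFs, PERK -/- MEFs and NIH3T3 cells. Hmga2 dropped from 712 TPM to 96.6 in WT at 5 h and from 292 to 86.7 in PERK -/- MEFs, while Ptms dropped from 1335 to 277 in WT and stood at 1244 in PERK -/- MEFs at 5 h.

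Hmga2, the AT-hook protein of embryonic and transformed cells, fell at every time in WT MEFs. From 712 TPM in untreated cells its level went to 232 after 1 h, 209 after 2 h, 96.6 after 5 h and 131 after 8 h. All 4 Tg libraries were thus below the control, and the lowest was that at 5 h, where 139 counts stood against 2188 in the control. The log2 changes were -1.62, -1.77, -2.88 and -2.44, the 6th lowest of 10432 genes both after 5 and after 8 h.

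Hmga2 of PERK -/- MEFs was close to its control early and far below it late. From 292 TPM in untreated cells the level went to 233 after 1 h, 231 after 2 h, 86.7 after 5 h and 72.25 after 8 h. Both early libraries lay near the control and both late ones well under it, and from 1 h to 5 h the levels of both genotypes nearly coincided, since the PERK -/- control was lower. Log2 changes were -0.32 and -0.34 at 1 and 2 h and -1.75 and -2.01 at 5 and 8 h, the 102nd and 27th lowest of all genes at the late times. From 2 to 5 h Hmga2 dropped by a further log2 change of -1.41 in PERK -/- and -1.11 in WT MEFs, where the SD over all genes between these times was 0.61 and 0.35. From 5 to 8 h it was higher again by 0.44 in WT (counting interval 0.16 to 0.74), against an SD over all genes of 0.19.

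NIH3T3 cells did not show this fall. Hmga2 was at 80.1 TPM untreated, 64.0 after 2 h and 74.6 after 7 h, log2 changes of -0.32 and -0.10. With 50 and 120 counts the intervals of the counts per library total ran from -0.67 to 0.24 and from -0.43 to 0.22, so no change was detectable at this depth, while a 2-fold fall lay outside both intervals.

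Hmga1, the AT-hook protein that is broadly made in dividing cells, took a shallower course. In WT MEFs it was at 1276 TPM in the control and at 717, 688, 618 and 573 TPM at 1, 2, 5 and 8 h, each library lower than the one before. The log2 changes were -0.83, -0.89, -1.05 and -1.16. Each step between neighbouring Tg times had a counting interval that included 0 (-0.25 to 0.11, -0.32 to 0.02 and -0.22 to 0.02). In PERK -/- MEFs the levels were 872, 774, 903, 602 and 411 TPM, with only the 8 h library more than 2-fold below the control (log2 -1.09). In NIH3T3 cells 609 TPM in untreated cells stood against 407 after 2 h and 352 after 7 h.

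Among the prothymosins, Ptms was the second gene on which the group was selected. Parathymosin is the smaller, less abundant relative of prothymosin α. WT MEFs had 1335 TPM of it when untreated, 562 after 1 h of Tg, 271 after 2 h, 277 after 5 h and 264 after 8 h. The level was thus reached by 2 h and hardly moved afterwards. Its log2 changes were -1.25, -2.30, -2.27 and -2.34, the 12th, 9th and 8th lowest of all genes from 2 h on. The step from 1 to 2 h was -1.05, and those from 2 to 5 h and from 5 to 8 h were 0.03 and -0.07.

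Ptms stayed within 2-fold of its control in PERK -/- MEFs. Untreated cells had 2184 TPM, and the Tg libraries 1150 after 1 h, 1748 after 2 h, 1244 after 5 h and 1393 after 8 h. All Tg libraries were below the control but above every Tg library of WT MEFs. The lowest value was the first (log2 -0.93 at 1 h), followed by -0.32, -0.81 and -0.65. In NIH3T3 cells the level went from 371 TPM to 184 at 2 h and 94.6 at 7 h, log2 changes of -1.01 and -1.97. The 2 h value was only just past 2-fold and was not past it under 5 other scalings, with log2 changes of -0.85 to -0.96. The 7 h value was the 64th lowest of 10117 genes.

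Ptma, which encodes prothymosin α, an acidic protein of proliferating cells, held the third highest level of all genes in both MEF controls. Its WT levels were 7263 TPM in the control and 3991, 2991, 3597 and 3628 TPM at 1, 2, 5 and 8 h. The lowest library was that at 2 h, and those at 5 and 8 h were close to each other. Log2 changes were -0.86, -1.28, -1.01 and -1.002. The levels in PERK -/- MEFs were 6811, 5241, 6191, 4348 and 4648 TPM, all below the control, with the lowest log2 change (-0.65) at 5 h. In NIH3T3 cells 1808 TPM in the control stood against 1070 and 936 TPM, log2 changes of -0.76 and -0.95.

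Among the HMGB genes, Hmgb1, the most abundant of them and also known as a signal released from damaged cells, had WT levels of 1813 TPM in the control and 1240, 920, 886 and 871 TPM at 1, 2, 5 and 8 h. Hmgb2, its relative in proliferating cells, had 1201 TPM and then 902, 636, 663 and 656 TPM. Hmgb3, the least abundant, had 174 TPM and then 122, 97.7, 84.5 and 75.2 TPM. In each of the 3 genes most of the drop was present by 2 h. At 5 and 8 h Hmgb1 (log2 -1.03 and -1.06) and Hmgb3 (-1.04 and -1.21) were past 2-fold and Hmgb2 (-0.86 and -0.87) was not. These calls lie near the threshold: with the trend of changes on GC content removed, Hmgb1 and Hmgb3 were at -0.86 and -0.84 at 5 h and at -0.86 and -0.97 at 8 h.

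No HMGB gene passed 2-fold in PERK -/- MEFs. Hmgb1 was at 1450 TPM in the control and 1243, 1570, 918 and 1046 TPM under Tg, so that the 2 h library was above the control and the late ones below. Hmgb2 stayed between 898 and 1146 TPM, and Hmgb3 between 96.6 and 162 TPM. In NIH3T3 cells the 3 genes were lower at 7 h than at 2 h, with log2 changes at 7 h of -0.74 for Hmgb1, -0.89 for Hmgb2 and -1.03 for Hmgb3.

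The HMGN genes included the members that moved least in WT MEFs. Hmgn1, a nucleosome-binding protein linked to open chromatin, was at 742 TPM in the WT control and 545, 523, 553 and 601 TPM under Tg, with log2 changes between -0.50 and -0.30. Hmgn2 was at 1002 TPM and then 696, 491, 519 and 604 TPM, past 2-fold at 2 h only (log2 -1.03). Both were lowest at 2 h and nearer to the control at 8 h. Hmgn3 was at 65.0 TPM and then 74.7, 48.3, 48.2 and 35.8 TPM, and was the only one of the 10 genes above its control at 1 h in WT, by a log2 change of 0.20. That value rests on 62 counts, and the interval of its counts per library total was -0.23 to 0.64.

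In PERK -/- MEFs, Hmgn1 was at 699 TPM in the control and at 598 to 782 TPM under Tg, Hmgn2 at 1015 and 737 to 993, and Hmgn3 at 107 and 73.4 to 108. None of the 3 genes passed 2-fold there. In NIH3T3 cells Hmgn2 had 426 TPM untreated, 303 after 2 h and 175 after 7 h, and its log2 change of -1.29 at 7 h was the lowest after that of Ptms. Hmgn1 (-0.55) and Hmgn3 (-0.47) were less far from their controls at 7 h.

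**Figure D2:**
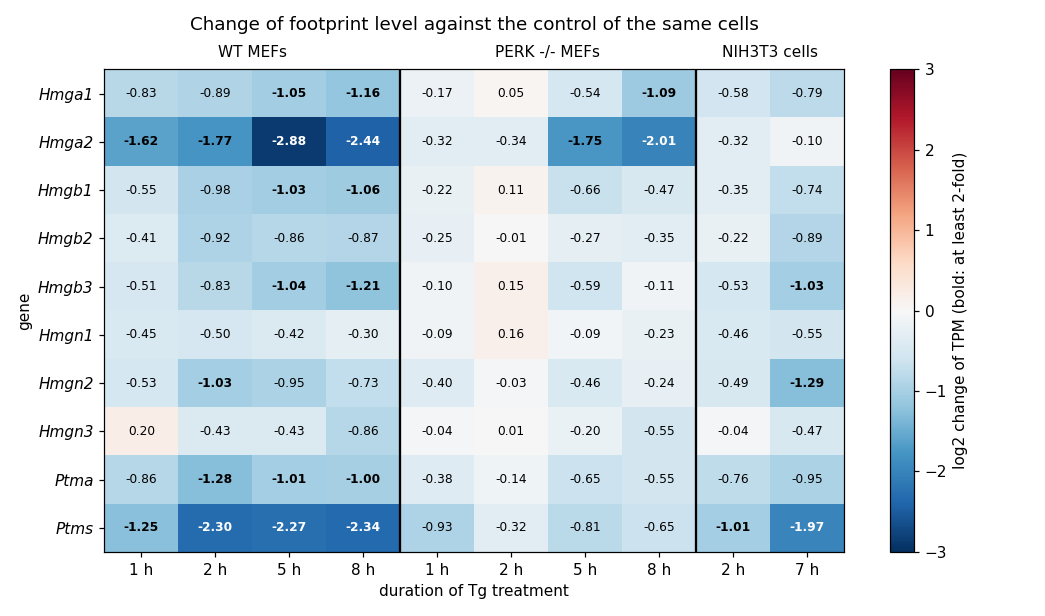
Log2 change of TPM against the control of the same cells (colour, with the value printed in each cell and bold where it was at least 2-fold) for the 10 genes (rows) at each Tg time (columns) of WT MEFs, PERK -/- MEFs and NIH3T3 cells. Values in WT MEFs reach -2.88 for Hmga2 and -2.34 for Ptms, and no cell of the plot shows a gene 2-fold above its control.

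Counted over the 10 genes, 2, 4, 6 and 6 were at least 2-fold down after 1, 2, 5 and 8 h of Tg in WT MEFs. Among all expressed genes 2.29%, 4.01%, 3.55% and 3.87% were. The members were selected on these WT contrasts, so nothing is read from those counts. Of the 8 genes other than Hmga2 and Ptms, 0, 2, 4 and 4 were down. Those just past the threshold were Ptma at 8 h (-1.002), Ptma at 5 h (-1.01) and Hmgn2 at 2 h (-1.03), and those just short of it Hmgb1 at 2 h (-0.98) and Hmgn2 at 5 h (-0.95). Across the other ways of scaling, the WT counts were 2 to 3, 3 to 5, 4 to 7 and 4 to 7.

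In PERK -/- MEFs 0 of the 10 genes were down at 1 and 2 h, 1 at 5 h (Hmga2) and 2 at 8 h (Hmga2 and Hmga1). The background over all genes was 3.38%, 5.78%, 4.77% and 2.73%. In NIH3T3 cells 1 gene was down at 2 h (Ptms) and 3 at 7 h (Ptms, Hmgn2 and Hmgb3), where the background was 3.76% and 8.06%. No member was 2-fold up in any of the 10 comparisons. Among all genes 4.33%, 5.66%, 5.86% and 6.45% were up in WT MEFs at 1, 2, 5 and 8 h. The shares up were 0.719%, 0.623%, 3.26% and 3.28% in PERK -/- MEFs and 5.76% and 7.01% in NIH3T3 cells.

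The median log2 change of the 10 genes was -0.54, -0.95, -1.02 and -1.03 in WT MEFs, where the median of all genes was 0, 0, 0.00 and 0.01. In PERK -/- MEFs the members' median was -0.24, -0.00, -0.56 and -0.51 and that of all genes -0.06, -0.11, 0 and 0.04. In NIH3T3 cells it was -0.48 at 2 h and -0.84 at 7 h, against -0.13 and 0. All 10 genes were below their control at 1, 5 and 8 h in PERK -/- MEFs, as were 55.7%, 48.3% and 40.1% of all genes, and 5 of 10 at 2 h, as were 58.4%. The 5 genes above the control at 2 h were Hmga1, Hmgb1, Hmgb3, Hmgn1 and Hmgn3, by no more than 0.16. Both early PERK -/- counts depend on the scaling: with TMM factors 7 members were below the control at 1 h and 2 at 2 h, where these factors moved the median of all genes by 0.11.

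At 2 h in PERK -/- MEFs, 5 of the 9 fibroblast markers were at least 2-fold down, against 5.78% of all genes. They were led by Col1a1 (log2 -1.72), Pdgfrb (-1.44), Col3a1 (-1.38) and Col1a2 (-1.37), and the median of the 9 was -1.35. At 7 h in NIH3T3 cells 4 of 8 were down, against 8.06% of all genes, among them Col1a1 (-1.47) and S100a4 (-1.15). In WT MEFs at most 1 of the 9 was down at any time, against 2.29% to 4.01% of all genes. Pdgfra could not be called there, as its WT levels of 0.27 to 2.79 TPM were under the floor of 4 TPM. The 9 markers summed to 5810 to 6601 TPM in the WT libraries, 4826 to 7433 in those of PERK -/- MEFs (lowest at 2 h) and 5278 to 8983 in those of NIH3T3 cells (lowest at 7 h), and the 6 markers of other cells to 4.62 to 18.8 TPM in all libraries. The part of this shift in the values of the 10 genes was not tested.

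**Figure D3:**
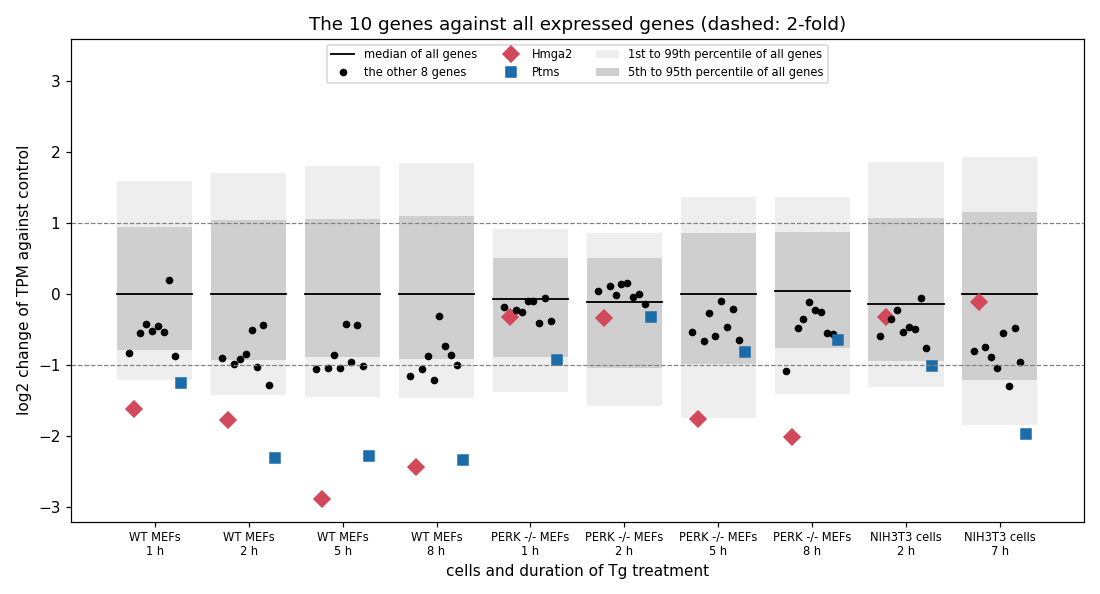
Log2 change of TPM against control (vertical axis) for Hmga2 (diamonds), Ptms (squares) and the other 8 genes (dots) at each time of the 3 kinds of cells (horizontal axis), over grey bars for the range of all expressed genes and a black line for their median. In WT MEFs Hmga2 and Ptms lie under the light grey bars, which end at the 1st percentile, at all 4 times (-1.20, -1.41, -1.45 and -1.46), and in PERK -/- MEFs Ptms stays within them.

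Because all 10 coding sequences were short, they were also set beside all genes of up to 648 coding nt with a mean of at least 16 TPM, a set that includes the 10 members. The 1315 such genes of MEFs had median log2 changes of -0.07, -0.12, -0.03 and -0.02 in WT and -0.05, -0.02, -0.00 and 0.05 in PERK -/- MEFs. At least 2-fold down were 2.97%, 7.07%, 5.93% and 7.00% of them in WT. The members' medians, given above, were lower than those of the short genes at 1, 5 and 8 h in PERK -/- MEFs and higher at 2 h, and in WT MEFs nothing is read from them, since Hmga2 and Ptms were chosen there.

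Whether the Tg changes differed between the genotypes was asked of each gene by subtracting the PERK -/- change from the WT change at the same hour. Hmga2 fell further in WT by log2 differences of -1.28, -1.48 and -1.16 at 1, 2 and 5 h, and by -0.40 at 8 h (95% counting interval -0.72 to -0.09). For Ptms the differences at 1, 2, 5 and 8 h were -0.34, -2.05, -1.50 and -1.68 (the last from -1.82 to -1.54). The gap in Hmga2 thus narrowed over time and that in Ptms did not. For Hmga1 it closed: -0.61, -0.94, -0.51 and -0.03 (-0.18 to 0.13).

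The counting interval lay wholly below 0 for 8, 10, 9 and 7 of the 10 genes at 1, 2, 5 and 8 h, and wholly above 0 for none. Among all genes with a count in each of the 4 libraries 21.8%, 22.2%, 26.4% and 27.7% had such an interval. Highly expressed genes have narrow intervals, which the members are, and the WT change that enters the difference is the one they were selected on. Differences of at least 2-fold in TPM were found for 1 gene at 1 h (Hmga2), 4 at 2 h (Ptms, Hmga2, Ptma and Hmgb1), 2 at 5 h (Ptms and Hmga2) and 2 at 8 h (Ptms and Hmgb3), against 3.6%, 5.13%, 5.54% and 5.77% of all genes. The median difference of the 10 genes in counts was -0.35, -1.06, -0.50 and -0.46.

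**Figure D4:**
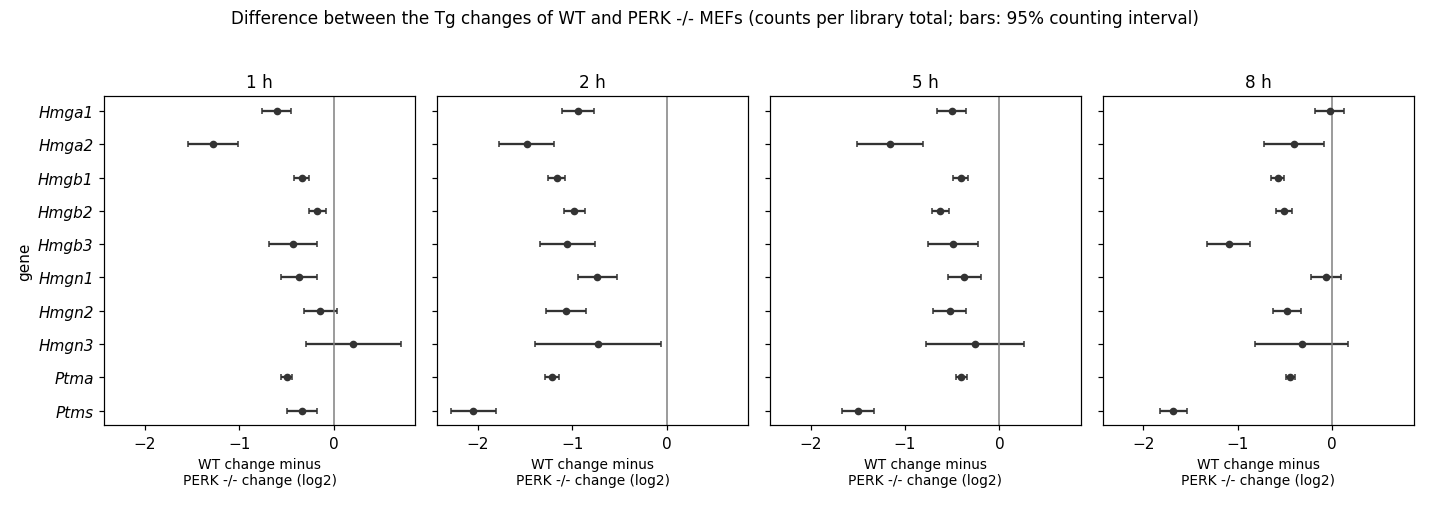
WT change minus PERK -/- change in log2 units of expected counts per library total (horizontal axis) for the 10 genes (vertical axis) at 1, 2, 5 and 8 h, with bars for the 95% interval of counting error. All 10 points lie left of 0 at 2 h, and Ptms lies at -2.05, -1.50 and -1.68 at 2, 5 and 8 h.

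The 3 genes whose levels ran most like those of Hmga2 over the 13 libraries, among 5103 genes, were Tpm3 (a tropomyosin, Pearson r 0.954), Ccnd1 (cyclin D1, 0.946) and Npm1 (the nucleolar histone chaperone nucleophosmin, 0.945). The values were log2 TPM centred within each kind of cells, and libraries of a time share depth and composition, so r is a description. Ccnd1 in WT MEFs was at 163 TPM in the control and at 116, 86.2, 47.5 and 51.8 TPM, and in NIH3T3 cells at 185, 170 and 196 TPM. Like Hmga2, it was lowest at 5 h in WT and near its control in NIH3T3 cells.

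For Ptms the most alike were 2 members, Hmgb2 (r 0.966) and Hmgn2 (0.943), and Lasp1 (a LIM and SH3 domain protein, 0.936). Hmga2 and Ptms were less like each other (r 0.668). By Spearman correlation Tpm3, Nap1l1 and Npm1 came first for Hmga2 and Cep55, Hmgb2 and Lasp1 for Ptms.

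Other chromatin proteins were set beside the members. Of 18 histone chaperones, the acidic or nucleolar proteins that escort histones, 3, 4, 5 and 6 were at least 2-fold down after 1, 2, 5 and 8 h of Tg in WT MEFs, and 0, 0, 1 and 2 in PERK -/- MEFs. Among all genes the shares down were 2.29%, 4.01%, 3.55% and 3.87% in WT and 3.38%, 5.78%, 4.77% and 2.73% in PERK -/- MEFs. Npm1 went from 6268 TPM in the WT control to 3112, 2474, 2430 and 2212 TPM. Anp32b, an acidic leucine-rich protein, was lowest of the list at each WT time, with log2 changes of -1.48, -1.87, -1.76 and -1.73. Set, another acidic chaperone, had -1.03, -1.19, -1.16 and -1.11 at 1, 2, 5 and 8 h in WT. The genes down in PERK -/- MEFs were Anp32b at 5 h (-1.01) and at 8 h (-1.12) and Npm1 at 8 h (-1.16). The median of the list was -0.19, -0.42, -0.59 and -0.62 in WT MEFs, 0.11, 0.19, -0.23 and -0.32 in PERK -/- MEFs, and -0.29 and -0.36 in NIH3T3 cells. In NIH3T3 cells 0 and 2 genes were down, Chaf1a (-1.37) and Anp32a (-1.14) at 7 h, against 3.76% and 8.06% of all genes.

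Linker histones, which compact chromatin and compete with HMG proteins for nucleosomes, had list medians of 0.44, 0.48, 0.30 and 0.30 in WT MEFs and of -0.46, -0.20, 0.14 and -0.32 in PERK -/- MEFs at 1, 2, 5 and 8 h. Of 7 such genes 3 were at least 2-fold up after 1 h in WT MEFs and 2 after 2 h, against 4.33% and 5.66% of all genes, and none later. Hist1h1d went from 858 TPM to 3156 at 1 h and 1803 at 2 h, and Hist1h1a from 490 to 1312 and 1212 TPM. None rose 2-fold in PERK -/- MEFs, where H1fx was 2-fold down at 1 h (log2 -1.25). In NIH3T3 cells the list medians were 1.08 at 2 h and -0.13 at 7 h. At 2 h 3 of 6 were up, against 5.76% of all genes. These were Hist1h1a (37.0 to 574 TPM), Hist1h1d (1698 to 7304 TPM) and Hist1h1b (1095 to 2944 TPM). At 7 h 1 was up, Hist1h1a (418 TPM), against 7.01% of all genes. Footprints of these genes, as of Hmga1, are uncertain where near-identical copies share reads.

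Of 12 further HMG-named and β-thymosin genes, 6 were expressed in MEFs. Hmgn5, an HMGN protein with a long acidic tail, fell in WT MEFs from 106 TPM to 47.2, 32.8, 27.2 and 29.1 TPM, log2 changes of -1.16, -1.69, -1.96 and -1.86. In PERK -/- MEFs Hmgn5 was at 83.0 TPM in the control and 52.1 to 71.6 TPM under Tg. Hmg20b, a subunit of a histone demethylase complex, fell in NIH3T3 cells, with log2 changes of -1.15 and -1.01.

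Proteins with an HMG box outside the HMGB group, transcription factors and chromatin remodelling or replication proteins, were also followed. Of 19 expressed in MEFs none was 2-fold down at any time, and 2, 1, 3 and 4 were up in WT, including Sox4 (log2 1.17 at 5 h and 1.26 at 8 h), Hbp1 (1.10 and 1.26) and Cic (1.28 at 1 h and 1.08 at 8 h). Among all genes 4.33%, 5.66%, 5.86% and 6.45% were up in WT. Down were 2.29% to 4.01% of all genes in WT and 2.73% to 5.78% in PERK -/- MEFs. In PERK -/- MEFs 1 was up at 8 h, Hbp1 (1.12), against 3.28% of all genes, and none earlier. In NIH3T3 cells 1 of 16 was down at 2 h, Sox12 (-1.05), against 3.76% of all genes. Of 20 proliferation genes none passed 2-fold in either direction in MEFs. In NIH3T3 cells 1 was down at 2 h, Ccna2, against 3.76% of all genes. At 7 h 5 were down, against 8.06% of all genes, led by Ccnb2 (-2.14), Ccna2 (-1.55), Cdk1 (-1.29) and Mki67 (-1.16). Those NIH3T3 falls stood beside those of Ptms, Hmgn2 and Hmgb3 at 7 h, and their part in them was not tested. The 3 Igf2bp RNA-binding proteins that are known to bind Hmga2 mRNA were expressed, and none changed 2-fold: Igf2bp1 was at 54.4 TPM in the WT control and at 41.0 to 47.2 TPM under Tg.

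Summed over the 10 genes, 1.56% of all TPM of untreated WT MEFs became 0.908% after 1 h, 0.688% after 2 h, 0.734% after 5 h and 0.744% after 8 h. Those of PERK -/- MEFs had 1.47%, 1.13%, 1.38%, 0.973% and 1.01%, and those of NIH3T3 cells 0.53%, 0.362% and 0.284%. The lowest sum stood at 2 h in WT and at 5 h in PERK -/- MEFs, and Ptma alone made up the largest piece of each sum.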

How the data were processed

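Ribosome footprints of 13 libraries were used. Footprints between 22 and 34 nt long had been kept, and STAR had served to discard those of rRNA and tRNA. Bowtie2 and RSEM then assigned the remainder to the coding parts of mm10 RefSeq transcripts, from which 30 nt at either end, and all transcripts shorter than 100 nt, had been taken out. Tool versions are not given in the sources used here. The expected counts, deposited as RSEM tables, hold whole numbers with library totals that differ, and a scaling between libraries is not given in the sources used here. The TPM values were deposited by the authors as RSEM scaled them within each library. Cycloheximide was not used.

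Genes with a mean of at least 2 TPM in a table were analysed, values under 4 TPM were raised to 4, and the log2 ratio of every Tg library to the control of its cells was taken. Of the changes in expected counts per library total, exact conditional (Clopper-Pearson) 95% intervals were computed, and 95% Wald intervals of the WT minus PERK -/- differences and of level ratios. Both cover counting error only, since they were computed from the counts of single libraries. They treat each footprint as an independent count, and whether single molecules were tagged is not given in the sources used here. Conditions were not tested against each other, as 1 library stood for each. The scripts were tested on simulated data. Other settings tried were a pseudocount of 1 TPM, a floor of 1 TPM, CPM, thinning of all libraries to the smallest, size factors of DESeq2, TMM factors, removal of a lowess GC trend (fraction 0.3), and mean TPM limits of 5 or none.

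The 10 members, the gene lists and the tests were chosen with earlier results of these data known. The rule for named genes took all members in every library, list genes changed at least 2-fold with at least 100 counts in 1 of both libraries (at most 4 per list and comparison, the largest first), and the 3 genes most like Hmga2 and Ptms. Igf2bp1, Set at 8 h, the genes alike by Spearman correlation, and list genes given at times other than those of their change were named after their values were seen. Sequences, coding lengths and positions came from GENCODE M21 on GRCm38, using the transcript with the lowest RefSeq accession, and sequence identity from a global alignment. DESeq2 1.42.0 and edgeR 4.0.16 under R 4.3.3 gave scaling factors only, and the rest was done in Python 3.11.15 (Biopython 1.88, matplotlib 3.10.9, statsmodels 0.14.6, scipy 1.17.1, pandas 2.3.3 and numpy 2.4.6). 1 related gene is not reported here.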

Additional observations from a re-analysis of the deposited data

How the results depend on the processing

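A floor of 1 TPM and a pseudocount of 1 TPM changed no sign and no 2-fold call among the 100 log2 changes of the 10 genes. CPM, TMM factors, DESeq2 size factors, thinned counts and the GC correction changed the sign of 4, 7, 8, 8 and 6 of them and the call of 2, 4, 4, 5 and 7. Hmga2 and Ptms kept their sign and their call in WT MEFs under each. The number of members down in NIH3T3 cells at 2 h was 1 (Ptms) by TPM and 0 by CPM, 0 with TMM factors, 0 with DESeq2 size factors, 0 in thinned counts and 0 with the GC trend removed. There, DESeq2 size factors moved the median of all genes by 0.13. GC content was known for 95.9% of genes. Hmgn3, with 24 to 382 counts per library, limits what can be said of it. No paired analysis was possible because each condition had 1 library and no replicate numbers, and no replicate could be left out.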
